A study of Mus musculus with 24 samples.

Results

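The cadherin superfamily was followed through RNA-seq of V6.5 mouse embryonic stem (mES) cells and the embryoid bodies (EBs) made from them, with and without auxin-induced loss of BRD2. Members were taken by symbol: Cdh with a number, Pcdh, Fat1 to Fat4, Dchs1 and Dchs2, and Celsr1 to Celsr3. Of 102 matching genes, 69 had a mean of at least 1 normalized count over the 24 libraries, out of 35742 genes in the deposited tables, of which 22019 reached that mean. A normalized count is a read count that the authors divided by 1 scaling factor per library. The members were 5 of 5 type I classical cadherins, 12 of 13 type II classical cadherins, 2 of 5 other Cdh genes, 31 of 58 clustered protocadherins, 10 of 12 other protocadherins, all 6 Fat and Dachsous genes and all 3 Celsr genes. The clustered members were 4 of 14 alpha, 6 of 22 beta and 21 of 22 gamma genes. Pcdhb7 lay just inside the threshold at 1.03, and Pcdhb19 (0.978) and Pcdha10 (0.974) lay just outside it.

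All groups were V6.5 cells with a BRD2 degron, a tag that lets auxin trigger removal of the tagged protein. In the groups called IAA, cells received 1 µg/ml doxycycline for 18 h beforehand and then 500 µM indole-3-acetic acid, an auxin, for 24 h. In the groups called Dox, cells received the same doxycycline and no IAA, so no group was without doxycycline. Each treatment was sampled in mES cells (2i medium with serum and LIF) and in EBs of day 2, 3 and 4 (EBd2, EBd3, EBd4, without LIF), with 3 libraries per group. The days of EB culture that IAA covered, the number of clones behind the line and the origin of the 3 libraries of a group (separate cultures or not) are not given in the labels. The p-values below therefore measure only the spread between these libraries. BRD2 is a bromodomain protein that binds acetylated histones and takes part in transcription by RNA polymerase II.

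Cadherins are calcium-dependent adhesion receptors built from repeats of an extracellular cadherin domain. Classical cadherins bind their like on the neighbouring cell and hold the actin cytoskeleton through catenins, and E-cadherin (Cdh1) keeps stem cell colonies and early epithelia together. When epiblast cells become mesoderm they typically lose E-cadherin and gain N-cadherin (Cdh2). Clustered protocadherins lie in tandem on mouse chromosome 18, where each promoter drives its own variable exon, and they give neurons a cell surface identity. Fat and Dachsous bind each other across cells and, with the Celsr (Flamingo) receptors, orient cells in the plane of a tissue.

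Recovered reads per library ranged from 7819522 to 15732767, and the 69 members held 0.121% to 0.291% of them. In EBd4 every IAA library was deeper (9007143 to 10598075 reads) than every Dox library (7941180 to 8120480), so that depth and IAA cannot be told apart there. The summed level of 8 pluripotency markers was 61516 to 63273 in mES IAA and 53709 to 55452 in mES Dox libraries, and 10527 to 12852 across the EB libraries of both treatments. The EBd2 Dox 3 library stood apart from EBd2 Dox 1 and Dox 2 (chi-square per degree of freedom of their counts 4.09 and 3.44, against 1.27 between Dox 1 and Dox 2), and the pair farthest apart within any group was EBd4 IAA 1 and IAA 3 (4.90). The Brd2 transcript was higher in IAA than in Dox at every stage (log2 fold change 0.38 to 0.87), and since the degron acts on the protein, it does not check the labels.

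Promoter windows (RefSeq, GRCm38.p6; 250 bases before to 50 after a start) were found for 27 of the 69 members. Fat3 and Celsr3 are shown because both fell with IAA in 3 of the 4 stages, and Celsr2 because it moved the other way from the other Celsr genes in mES cells. The Fat3 window is chr9:16502005-16502304 on the minus strand, the Celsr3 window chr9:108825795-108826094 on the plus strand, and the Celsr2 window chr3:108415530-108415829 on the minus strand. Each is printed 5′ to 3′ on the gene's strand, with capitals for the E-box CACCTG or its reverse complement CAGGTG, the motif bound by the Snail and Zeb repressors of Cdh1.
Fat3: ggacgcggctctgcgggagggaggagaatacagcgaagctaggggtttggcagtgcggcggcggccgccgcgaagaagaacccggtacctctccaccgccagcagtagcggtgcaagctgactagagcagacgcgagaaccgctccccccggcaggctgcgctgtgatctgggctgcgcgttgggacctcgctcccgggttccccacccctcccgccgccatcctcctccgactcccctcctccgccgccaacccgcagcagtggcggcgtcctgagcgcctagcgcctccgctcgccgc
Celsr3: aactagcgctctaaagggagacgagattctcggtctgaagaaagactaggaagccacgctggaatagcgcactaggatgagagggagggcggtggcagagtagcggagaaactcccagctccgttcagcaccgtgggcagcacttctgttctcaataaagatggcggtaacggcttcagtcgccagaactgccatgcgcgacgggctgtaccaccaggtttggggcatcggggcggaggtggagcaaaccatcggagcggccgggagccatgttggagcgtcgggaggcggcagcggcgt
Celsr2: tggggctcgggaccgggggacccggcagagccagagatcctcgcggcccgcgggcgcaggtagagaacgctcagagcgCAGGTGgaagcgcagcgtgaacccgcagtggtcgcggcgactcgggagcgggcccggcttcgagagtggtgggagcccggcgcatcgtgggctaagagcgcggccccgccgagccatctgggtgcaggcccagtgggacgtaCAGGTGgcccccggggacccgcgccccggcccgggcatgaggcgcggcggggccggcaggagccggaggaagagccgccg
The Celsr2 window held the motif 2 times, and the windows of Fat3 and Celsr3 did not hold these letters. Of 32851 windows in the table, 20.2% held it on either strand. The windows held 35 (Fat3), 25 (Celsr3) and 40 (Celsr2) CpG dinucleotides, against a median of 7 over all windows, and none of the 3 held TATAAA, which 8.32% of all windows did. These matches describe the letters and not binding.

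In Dox cells the family was led at all stages by E-cadherin and Fat1, and most members rose when EBs formed. Per kb of exon not shared with another gene, Cdh1 had the highest mean at every stage, with 1654 normalized counts per kb in mES, 2151 in EBd2, 2515 in EBd3 and 2142 in EBd4 Dox cells. Fat1, a giant cadherin that restrains growth and shapes actin, came next at every stage, with 199, 1034, 344 and 392 per kb in the same order. P-cadherin (Cdh3) ranked next after Fat1 in all 4 stages, at 70.3 to 155 per kb. The type II cadherin Cdh24 (43.5 to 95.8 per kb) ranked 4 or 5 at every stage. Pcdh1 (77.3 to 112 per kb) took the other of these places from EBd2 on, and Celsr1 took it in mES (47.8 per kb). Exon lengths are those of GENCODE M21, which may not be the annotation the authors counted on.

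Against mES Dox, 40 of the 69 members rose and 12 fell in EBd2 Dox cells by limma with Benjamini-Hochberg adjustment at 0.05, where 64.1% of all genes passed (35.0% higher, 29.1% lower). In EBd3 Dox cells 36 rose and 9 fell (60.1% of all genes passed; 31.5% higher, 28.6% lower), and in EBd4 Dox cells 39 rose and 7 fell (60.8%; 30.6% higher, 30.2% lower). The 3 comparisons share the mES Dox libraries. These shares (52, 45 and 46 of 69) stand beside a background in which most genes passed, and were not tested against it. The median log2 fold change of the members was 1.12, 0.93 and 1.13, against 0.07, 0.03 and 0.00 over all genes. With members absent from mES Dox set at their lower bound, the medians were 1.09, 0.92 and 1.10. Without the EBd2 Dox 3 library, 38 rose and 11 fell in EBd2.

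**Figure D1:**
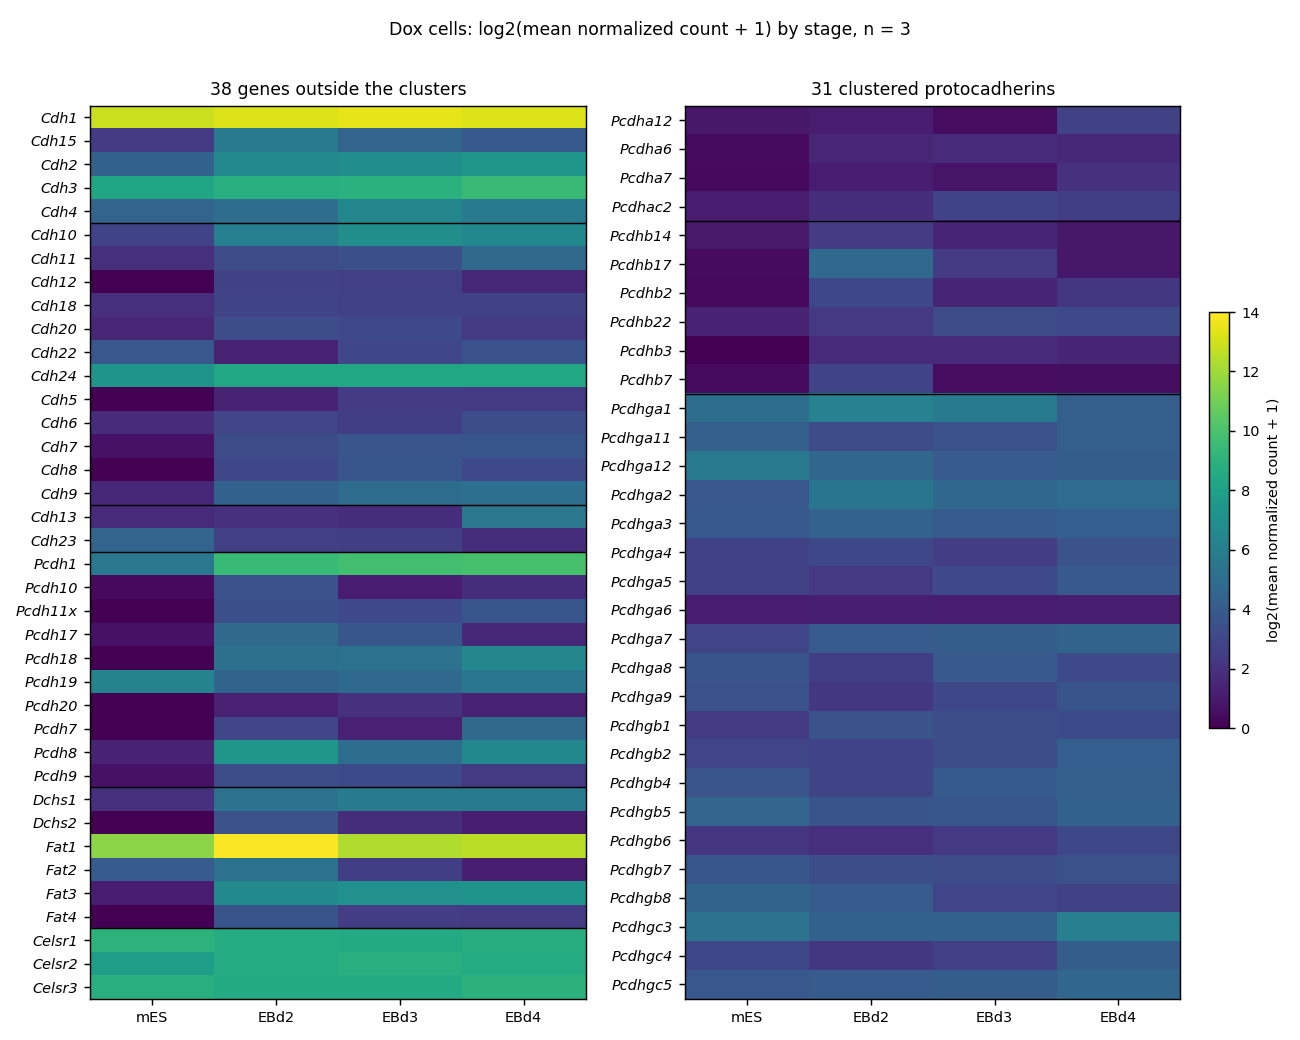
Mean normalized count of each of the 69 members in Dox cells at the 4 stages, on the colour scale as log2(mean + 1), n = 3 libraries. Genes are grouped by class with black lines between classes. Cdh1 and Fat1 are bright in every column, while many type II cadherins and unclustered protocadherins are dark in mES and brighter in EBs.

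All 5 type I cadherins rose at each EB stage, where 35.0% (EBd2), 31.5% (EBd3) and 30.6% (EBd4) of all genes rose. Cdh2 had 13.6, 17.4 and 26.0 normalized counts in mES Dox libraries, 92.6 to 101 in EBd2, 103 to 130 in EBd3 and 133 to 214 in EBd4. Its level was thus above every mES Dox library in all 9 EB Dox libraries (log2 fold change 3.11 ± 0.19 SE in EBd4 against mES, limma adjusted p = 3.4e-13). Cdh1 rose much less, to 11505 ± 182 in EBd3 Dox against 7564 ± 164 in mES Dox (SD, n = 3; log2 fold change 0.61 ± 0.03, adjusted p = 3.0e-15). E-cadherin transcripts were thus higher, not lower, at the stages where N-cadherin transcripts rose. Among type II cadherins, Cdh10, a neural cadherin, had 118 ± 13.4 in EBd3 Dox and 6.01 ± 0.538 in mES Dox cells. Cdh13, an anchored cadherin without a cytoplasmic tail, averaged 45.7 in EBd4 Dox and 2.12 in mES Dox (log2 fold change 4.00 ± 0.54, adjusted p = 6.3e-07). Cdh23, a component of hair cell tip links, fell instead (2.54 in EBd4 Dox and 22.6 in mES Dox; log2 fold change -3.05 ± 0.50, adjusted p = 9.0e-06).

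Among unclustered protocadherins 9 of 10 rose in EBd2, 8 in EBd3 and 5 in EBd4 Dox cells, and of the 6 Fat and Dachsous genes 6, 5 and 5 rose. Of all genes 35.0%, 31.5% and 30.6% rose at these stages, and the class counts were not tested against these shares. In EBd2, 4 of the 10 unclustered protocadherins and 2 of the 6 Fat and Dachsous genes had no read in mES Dox, so their rises are known only as bounds. Pcdh18 had no read in mES Dox and averaged 88.6 in EBd4 Dox, at least 98.3-fold higher when 3 reads over the group are taken as the limit that a count of 0 allows. Pcdh7 averaged 27.7 in EBd4 Dox, at least 30.7-fold higher by the same limit. Pcdh1, an adhesion protocadherin of epithelia, averaged 985 in EBd4 Dox and 47.1 in mES Dox (log2 fold change 4.36 ± 0.08, adjusted p = 1.1e-23). Pcdh8, which is expressed in the mouse primitive streak and paraxial mesoderm, peaked early, with 170 in EBd2, 31.7 in EBd3 and 90.3 in EBd4 Dox, against 1.49 in mES Dox. Fat1 also peaked at EBd2, with 14251 to 16696 there and 4842 to 6317 in EBd3 and EBd4 Dox. Fat3 rose to 150 ± 29.2 in EBd4 Dox, against 1.19 ± 0.473 in mES Dox (SD, n = 3). Pcdh19, an X-linked protocadherin of the developing brain, was the only unclustered protocadherin that fell in all 3 comparisons, and averaged 21.9 in EBd2 Dox and 75.1 in mES Dox (log2 fold change -1.73 ± 0.21, adjusted p = 1.1e-07).

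With IAA, members moved both ways in mES and EBd2 and mostly downward in EBd3 and EBd4. In mES, 3 of 47 tested members rose and 7 fell, where 37.5% of all genes passed (17.3% higher, 20.1% lower). In EBd2, 8 of 68 rose and 14 fell, where 30.1% of all genes passed (13.4% higher, 16.7% lower). In EBd3, 1 of 65 rose and 8 fell (10.5% of all genes passed; 4.22% higher, 6.32% lower). In EBd4, 1 of 65 rose and 8 fell (10.3%; 4.69% higher, 5.57% lower). These counts were not tested against the background, and 38 of the 69 members passed at no stage. Members below a mean of 1 in a stage were not tested there (22 in mES, 1 in EBd2, 4 each in EBd3 and EBd4). The median log2 fold change of the tested members was 0.00 in mES, -0.14 in EBd2, -0.25 in EBd3 and -0.46 in EBd4, against -0.01, -0.04, -0.01 and -0.01 over all genes. Without the EBd2 Dox 3 library the EBd2 counts were 9 and 12. Without EBd4 IAA 1 the EBd4 counts were 0 and 4, and they were also 0 and 4 without EBd4 Dox 1 or without EBd4 Dox 2. In EBd3, 3 members in all passed without EBd3 Dox 2, and 5 passed without EBd3 Dox 1 or without EBd3 Dox 3. Here and below, in bulk RNA, fewer cells of a type and less RNA per cell cannot be told apart.

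**Figure D2:**
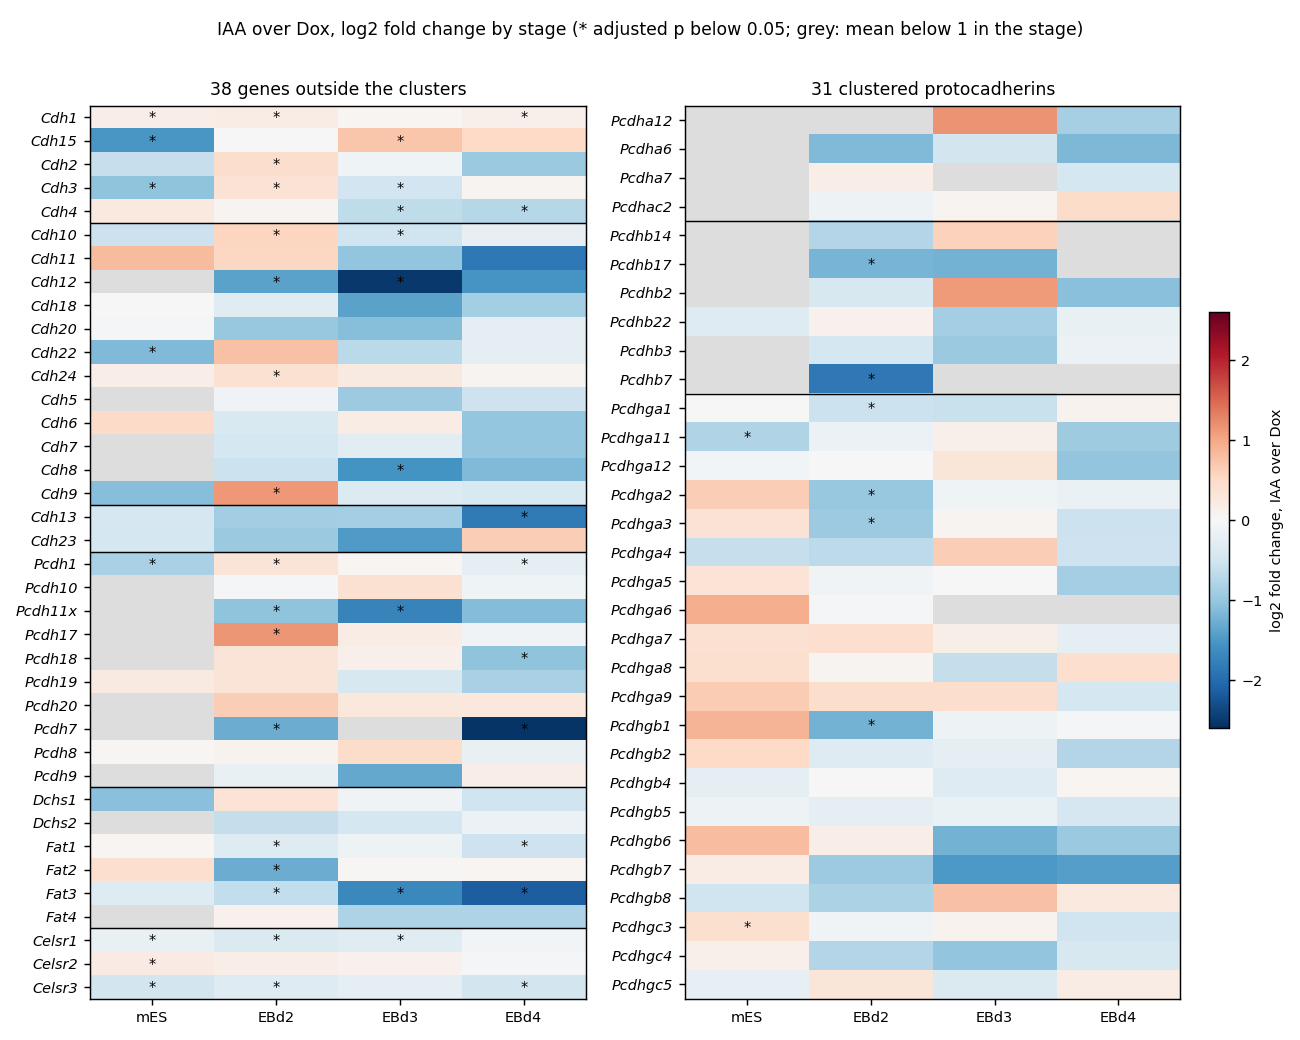
Log2 fold change of IAA over Dox for each member at each stage, red for higher and blue for lower in IAA, with a star where the limma adjusted p was below 0.05 and grey where the mean was below 1. Left, the 38 members outside the protocadherin clusters, and right, the 31 clustered members. Stars of both colours stand in the mES and EBd2 columns, and in EBd3 and EBd4 all but 1 star each are on blue.

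E-cadherin was slightly higher with IAA, and the neighbouring P-cadherin changed direction between stages. Cdh1 (chr8:106603351-106670246, mm10) had 8456, 8386 and 8585 normalized counts in mES IAA, against 7374, 7651 and 7666 in mES Dox. In EBd2 it had 11870, 10847 and 11141 in IAA, against 9776, 9965 and 9775 in Dox. In EBd4 it had 10902, 11100 and 10193 in IAA, against 9734, 9810 and 9847 in Dox. All IAA libraries lay above all Dox libraries in these 3 stages and the groups overlapped in EBd3. The log2 fold changes were 0.16 ± 0.02 in mES (adjusted p = 3.3e-08), 0.20 ± 0.04 in EBd2 (9.2e-04) and 0.13 ± 0.04 in EBd4 (0.042), and 0.05 ± 0.03 in EBd3 (0.35). The EBd4 call was lost in 8 of 15 alternative settings.

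Cdh3 (chr8:106510891-106557297), which ends 46.1 kb before Cdh1 starts on the same strand, had 170, 129 and 151 in mES IAA, against 293, 302 and 330 in mES Dox. In EBd2 it had 585, 555 and 551 in IAA, against 428, 437 and 444 in Dox. In EBd3 it had 335, 396 and 327 in IAA, against 480, 469 and 534 in Dox. The groups did not overlap in these 3 stages, with IAA lower, higher and lower in turn. The log2 fold changes were -1.04 ± 0.08 (adjusted p = 3.0e-13), 0.37 ± 0.06 (1.0e-04) and -0.49 ± 0.08 (1.5e-04), and all 3 calls held in every alternative setting run. In EBd4 the groups overlapped (879, 694 and 599 in IAA, against 630, 685 and 721 in Dox; 0.08 ± 0.11, adjusted p = 0.73). Tested as a difference of effects over all 24 libraries, the effect in EBd2 exceeded that in mES by 1.41 ± 0.14 on the log2 scale (adjusted p = 3.1e-09). The summed level of 6 epiblast markers was 709 to 819 in mES IAA, against 1422 to 1565 in mES Dox (2 risen, 2 fallen). In EBd2 it was higher in every IAA library, as given below, and in EBd3 the groups overlapped. In mES the streak and mesoderm sum was also lower, and the neuroectoderm, primitive endoderm and endothelium sums were higher in every IAA library. The part of these markers in the Cdh3 values was not tested.

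Cdh2 had 153, 121 and 125 in EBd2 IAA, against 101, 92.6 and 95.5 in EBd2 Dox, and rose there (log2 fold change 0.45 ± 0.11, adjusted p = 0.0049). In EBd4 its libraries were wide apart, with 51.2, 73.8 and 165 in IAA, against 214, 162 and 133 in Dox, and the difference did not pass (-0.95 ± 0.30, adjusted p = 0.055), though it passed in 3 alternative settings. The summed level of 8 primitive streak and mesoderm markers moved alongside in those libraries. It was 227, 807 and 2880 in EBd4 IAA 1, 2 and 3, against 4355, 3702 and 2072 in EBd4 Dox 1, 2 and 3. No marker of the list was at 0 throughout either EBd4 group, and 3 of the 8 (Fgf8, Wnt3 and Eomes) fell with IAA. The streak sums of IAA and Dox overlapped, while other EBd4 sums were lower in every IAA library. For 8 pluripotency markers they were 10527 to 11066 in IAA and 11675 to 12542 in Dox, with 4 risen and 2 fallen. For 6 epiblast markers they were 18890 to 19889 and 19934 to 21539, with 1 fallen. For 7 primitive endoderm markers they were 1079 to 1136 and 1201 to 1352, with 1 fallen. Sums of the remaining lists overlapped. The part of all these markers in the cadherin values was not tested.

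R-cadherin (Cdh4), a classical cadherin of brain and retina, fell in EBd3 (59.4, 50.9 and 52.0 in IAA, against 76.0, 95.8 and 86.0 in Dox; -0.65 ± 0.16, adjusted p = 0.0075). It also fell in EBd4 (33.2, 42.5 and 25.9 in IAA, against 63.7, 49.8 and 56.7 in Dox; -0.75 ± 0.22, adjusted p = 0.039), a call that was lost in 8 of 15 alternative settings. The groups did not overlap at either stage. M-cadherin (Cdh15), known from muscle, averaged 1.13 in mES IAA and 4.53 in mES Dox and 37.7 in EBd3 IAA and 22.4 in EBd3 Dox. It fell in mES on 4 reads in IAA and 15 in Dox, with overlapping groups (-1.52 ± 0.54, adjusted p = 0.024), a call that 4 alternative settings lost. It rose in EBd3 (0.73 ± 0.24) at an adjusted p of 0.0498, a call that 10 of 15 alternative settings lost.

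**Figure D3:**
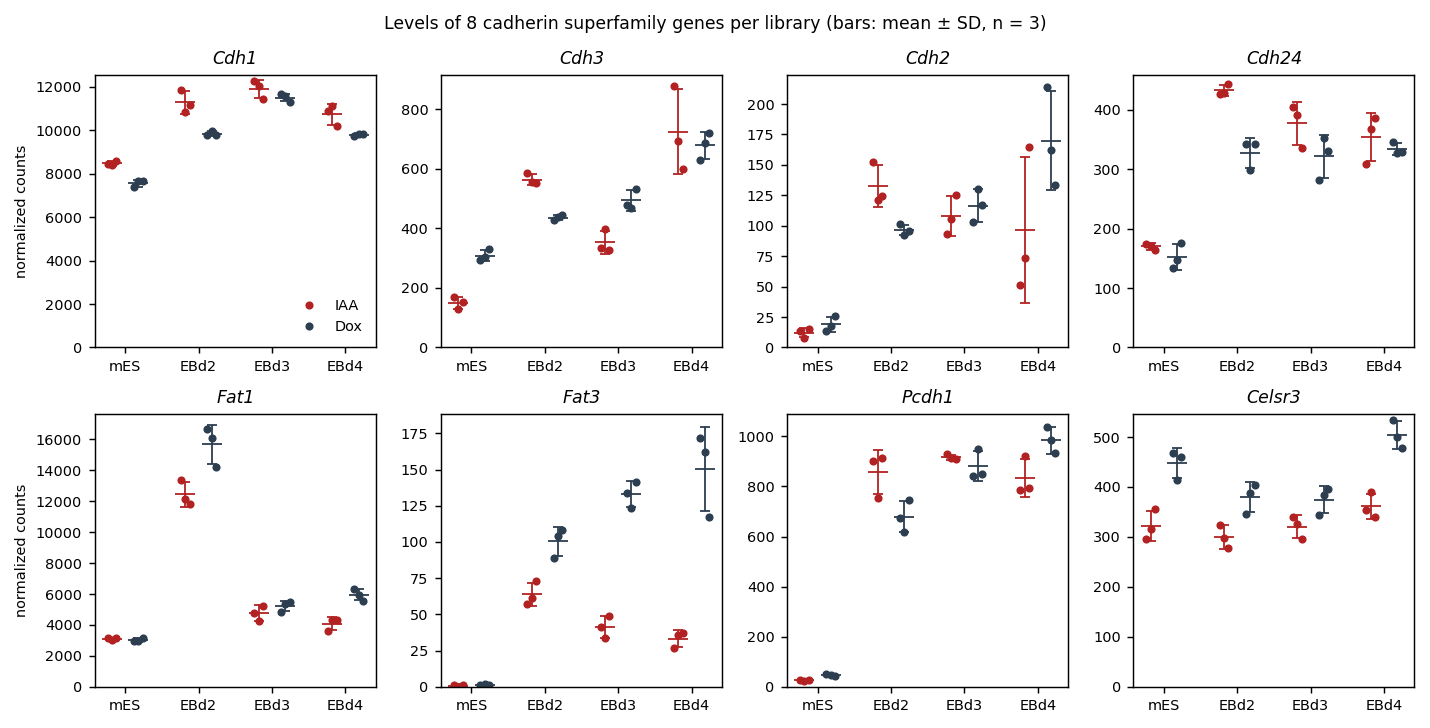
Normalized counts of Cdh1, Cdh3, Cdh2, Cdh24, Fat1, Fat3, Pcdh1 and Celsr3 in every library, with IAA in red to the left of Dox in dark blue at each stage, and bars for mean ± SD (n = 3). The 9 EB IAA libraries of Fat3 lie below all Dox libraries of their stage. Cdh3 is lower with IAA in mES and EBd3 and higher in EBd2.

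Of the 12 type II cadherins, 3 rose and 1 fell in EBd2, where 13.4% of all genes rose and 16.7% fell. In EBd3 none rose and 3 fell, where 4.22% of all genes rose and 6.32% fell; edgeR called 3 and DESeq2 0 (6 had an unadjusted p below 0.05 by limma, and DESeq2 gave Cdh8 and Cdh12 no adjusted p). EBd3 was not tested against EBd2. Cdh24 had 426, 428 and 443 in EBd2 IAA, against 342, 298 and 342 in EBd2 Dox (0.40 ± 0.07, adjusted p = 2.0e-04). Cdh9, a neural cadherin of synapses, had 41.5, 44.2 and 39.8 in EBd2 IAA, against 11.7, 22.7 and 23.7 in EBd2 Dox (1.13 ± 0.24, adjusted p = 0.0011). Cdh10 had 91.8, 97.4 and 98.1 in EBd2 IAA, against 66.2, 59.5 and 68.9 in EBd2 Dox (0.56 ± 0.12, adjusted p = 0.0018). These 3 genes were higher in every EBd2 IAA library. Marker sums moved beside them: 6 neuroectoderm markers summed to 2341 to 2384 in EBd2 IAA, against 1222 to 1287 in EBd2 Dox, with 4 of the 6 risen and 1 fallen. The same sum was 2697 to 2833 in mES Dox, above both EBd2 groups, so its change need not be a change in neuroectoderm. For 6 epiblast markers the sums were 32616 to 34515 in EBd2 IAA and 24108 to 25947 in EBd2 Dox, with 5 of 6 risen. For 7 primitive endoderm markers they were 777 to 839 in EBd2 IAA and 552 to 585 in EBd2 Dox, with 3 risen. The primitive endoderm sum, too, was higher in mES Dox (1466 to 1563). Sums of the 8 pluripotency markers overlapped (12233 to 12835 in EBd2 IAA and 11965 to 12852 in EBd2 Dox), with 1 risen and 3 fallen. Other lists were lower in every EBd2 IAA library. The 8 primitive streak and mesoderm markers summed to 136 to 174 in EBd2 IAA and 243 to 276 in EBd2 Dox, with 2 fallen. For 4 endothelium markers the sums were 485 to 539 in EBd2 IAA and 703 to 947 in EBd2 Dox, with 3 fallen. The endothelium sum was 1813 to 1941 in mES Dox, above both EBd2 groups, so its change need not be a change in endothelium. For 6 fibroblast markers the sums were 127 to 142 in EBd2 IAA and 190 to 239 in EBd2 Dox, with 3 fallen. No list had a marker at 0 throughout either EBd2 group, and the part of these markers in the EBd2 values of any member was not tested. In EBd3 Cdh10 was lower in every IAA library (82.6, 68.3 and 94.5, against 133, 112 and 108 in Dox; -0.53 ± 0.14, adjusted p = 0.017), a call that 6 of 15 alternative settings lost. Cdh8 averaged 3.53 in EBd3 IAA and 12.4 in EBd3 Dox (-1.55 ± 0.43, adjusted p = 0.017), a call that 3 alternative settings lost. Cdh12 had no read in EBd3 IAA and 14 reads in EBd3 Dox, at least 4.41-fold lower against the limit of 3 reads over the group, a call that 2 alternative settings lost. Streak and mesoderm markers summed to 125 to 155 in EBd3 IAA and 183 to 203 in EBd3 Dox, with 2 fallen. Neuroectoderm markers summed to 2745 to 2957 in EBd3 IAA and 2381 to 2476 in EBd3 Dox, with 1 risen and 1 fallen. Sums of the other lists overlapped in EBd3. The part of these markers in the EBd3 values of any member was not tested. Cdh22 fell in mES, with 5.86, 6.17 and 3.76 in IAA, against 12.7, 9.56 and 16.7 in Dox (-1.15 ± 0.35, adjusted p = 0.0079). That call was lost in 3 alternative settings, DESeq2 among them.

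In EBd4 none of the 12 type II cadherins passed limma, and 0 passed edgeR or DESeq2, while 3 had an unadjusted p below 0.05. Of the 12, 11 had a negative fold change (median -0.71). Cdh11, a cadherin of mesenchyme, had 0.948, 7.83 and 21.4 in EBd4 IAA, against 22.9, 43.6 and 16.4 in EBd4 Dox (-1.86 ± 0.65, adjusted p = 0.086). VE-cadherin (Cdh5), the adhesion receptor of endothelium, stayed at a mean of 4.46 or below in every group and passed at no stage with IAA. Cdh13 was low until EBd4, where it had 10.4, 14.5 and 11.3 in IAA, against 47.1, 49.8 and 40.3 in Dox. Every IAA library was below every Dox library, and the fall (-1.84 ± 0.25, adjusted p = 5.8e-04) held in all 15 alternative settings.

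Of the Fat and Dachsous genes that passed with IAA, Fat3 had the largest fold change, and it passed at all 3 EB stages. Fat3 (chr9:15910189-16501285), known from work on retinal neuron shape in mouse, had 57.4, 61.3 and 72.9 in EBd2 IAA, against 88.9, 104 and 108 in EBd2 Dox. In EBd3 it had 41.3, 33.5 and 48.8 in IAA, against 134, 123 and 141 in Dox. In EBd4 it had 26.5, 35.8 and 37.2 in IAA, against 172, 162 and 117 in Dox. No IAA library reached a Dox library of its stage. Fat3 rose over the stages in Dox cells, while its mean with IAA was 63.9, 41.2 and 33.2 from EBd2 to EBd4. The log2 fold changes were -0.65 ± 0.13 (adjusted p = 9.0e-04), -1.68 ± 0.16 (6.05e-08) and -2.14 ± 0.19 (2.8e-05). The effects in EBd3 and EBd4 differed from that in mES (by -1.34 ± 0.37, adjusted p = 0.012, and -1.80 ± 0.37, adjusted p = 5.4e-04), where Fat3 had 3 reads in IAA and 4 in Dox over the groups. Both differences were lost under edgeR, DESeq2 and a pseudocount of 0.25. Effects at EB stages were not tested against each other.

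Fat1 (chr8:44935447-45052257) had 13389, 12164 and 11852 in EBd2 IAA, against 16696, 16099 and 14251 in EBd2 Dox. In EBd4 it had 3638, 4311 and 4325 in IAA, against 6317, 5961 and 5580 in Dox. The groups were apart at both stages and overlapped in mES and EBd3. The log2 fold changes were -0.33 ± 0.05 in EBd2 (adjusted p = 7.0e-05) and -0.54 ± 0.06 in EBd4 (1.5e-04), both in every alternative setting run. Fat2, which acts in collective migration of epithelia, fell in EBd2 (14.1, 11.7 and 15.9 in IAA, against 41.9, 35.0 and 30.1 in Dox; -1.29 ± 0.23, adjusted p = 2.1e-04). The lower EBd2 sums of streak, endothelium and fibroblast markers given above stand beside the EBd2 falls of Fat1, Fat2 and Fat3, and their part was not tested. The endothelium sum was higher in mES Dox than in either EBd2 group, as given above. Fat4 and its ligand Dchs1 passed at no stage, nor did Dchs2. Dchs1 averaged 49.95 in EBd2 IAA and 38.2 in EBd2 Dox (0.35 ± 0.18, adjusted p = 0.16), and Fat4 12.8 in EBd2 IAA and 11.6 in EBd2 Dox.

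Celsr3 and Celsr1 fell with IAA in 3 stages each, and Celsr2 rose in 1. Averaged over all libraries, Celsr1, Celsr2 and Celsr3 had 36.1, 32.5 and 31.4 normalized counts per kb. Celsr3, the neuronal member that guides axon tracts, had 295, 315 and 355 in mES IAA, against 468, 413 and 461 in mES Dox. In EBd2 it had 324, 299 and 277 in IAA, against 345, 388 and 404 in Dox, and in EBd4 354, 389 and 341 in IAA, against 534, 501 and 478 in Dox. It was lower in every IAA library at these stages (-0.48 ± 0.06, adjusted p = 7.6e-08; -0.34 ± 0.08, adjusted p = 0.0026; -0.48 ± 0.08, adjusted p = 0.0014), and all 3 calls held in every alternative setting run. Celsr1, which orients hair follicles and neural tube closure in mouse, averaged 310.0 ± 21.6 in EBd2 IAA and 403 ± 10.2 in EBd2 Dox (SD, n = 3). It fell in mES (-0.19 ± 0.06, adjusted p = 0.0059), EBd2 (-0.38 ± 0.07, 3.9e-04) and EBd3 (-0.31 ± 0.08, 0.014). Celsr2 rose in mES, where it had 249, 269 and 245 in IAA, against 202, 238 and 216 in Dox (0.22 ± 0.07, adjusted p = 0.015), and passed at no EB stage. The Celsr1 calls in mES and EBd3 and the Celsr2 call in mES were each lost in 3 alternative settings, DESeq2 among them.

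Among unclustered protocadherins, Pcdh1 was lower, higher and lower with IAA as the stages went on. It had 28.3, 22.0 and 27.9 in mES IAA, against 50.7, 46.9 and 43.7 in mES Dox. In EBd2 it had 901, 755 and 915 in IAA, against 674, 620 and 746 in Dox. In EBd4 it had 786, 922 and 793 in IAA, against 1039, 984 and 932 in Dox. The groups did not overlap at these stages, with IAA lower, higher and lower in turn. The log2 fold changes were -0.84 ± 0.18 (adjusted p = 2.8e-04), 0.33 ± 0.07 (0.0018) and -0.24 ± 0.07 (0.039), and 7 of 15 alternative settings lost the EBd4 call. The effect in EBd2 exceeded that in mES by 1.17 ± 0.13 (adjusted p = 1.8e-08). The epiblast sums given above moved the same way in mES, EBd2 and EBd4, and their part in the Pcdh1 values was not tested.

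Pcdh17, which acts in axon and synapse formation in mouse, had 72.4, 58.6 and 55.7 in EBd2 IAA, against 23.5, 24.6 and 35.2 in EBd2 Dox (1.15 ± 0.19, adjusted p = 8.5e-05). Every IAA library exceeded every Dox library. Pcdh7 had 1.90, 1.12 and 15.8 in EBd4 IAA, against 25.5, 38.6 and 18.9 in EBd4 Dox (-2.55 ± 0.61, adjusted p = 0.015). Pcdh18 had 30.3, 32.4 and 76.7 in EBd4 IAA, against 90.4, 95.9 and 79.3 in EBd4 Dox (-1.04 ± 0.27, adjusted p = 0.024). In both genes EBd4 IAA 3 was highest among the IAA libraries and EBd4 Dox 3 lowest among the Dox libraries. That order was also seen in Cdh2, Cdh11, Fat1 and Fat3 and in the summed primitive streak markers given above. It was not seen in Cdh4, Cdh13, Celsr3 and Pcdh1, which also fell in EBd4. The part of the streak markers in the EBd4 falls was not tested. The calls of Pcdh7 and Pcdh18 were each lost in 4 alternative settings, among them the one without EBd4 IAA 1. Pcdh11x fell in EBd2 and EBd3, at means of 4.52 in EBd2 IAA and 9.61 in EBd2 Dox and of 1.61 in EBd3 IAA and 7.65 in EBd3 Dox, calls that 11 and 5 alternative settings lost. Pcdh7 also fell in EBd2, at means of 2.24 in EBd2 IAA and 6.48 in EBd2 Dox, a call that 10 alternative settings lost. Pcdh8, Pcdh9, Pcdh10, Pcdh19 and Pcdh20 passed at no stage.

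In the clustered protocadherins 6 of 30 tested members fell with IAA in EBd2, where 16.7% of all genes fell, and the summed beta level was lower in each IAA library there. All 31 members lie on chromosome 18, and all 21 gamma members share exons with other genes of the cluster, so that reads in those exons belong to no single member. How the authors' counting treated such reads is not given in the sources used here. Summed over all 22 beta genes, the level was 31.8, 37.0 and 26.5 in EBd2 IAA, against 62.9, 66.2 and 66.0 in EBd2 Dox. Pcdhb17 alone averaged 11.4 in EBd2 IAA and 26.7 in EBd2 Dox, and Pcdhb7 1.18 in EBd2 IAA and 5.96 in EBd2 Dox. These were the 2 of 6 beta members that passed, while Pcdhb22 averaged 4.68 in EBd2 IAA and 4.09 in EBd2 Dox (0.10 ± 0.41, adjusted p = 0.89). Of the 29 reads of Pcdhb7 over all libraries, 8, 5 and 9 lay in the EBd2 Dox libraries. Pcdhb7 thus met the member threshold through the group it fell against, which limits what its fall adds to the counts. The beta sum in mES was 1.76 to 6.02 in IAA and 2.61 to 6.50 in Dox. Each beta sum in EBd2 IAA lay below those in EBd2 Dox and above those in mES Dox. Summed over all 22 gamma genes, the level was 212 to 243 in EBd2 IAA, against 285 to 328 in EBd2 Dox, and 254 to 286 in EBd4 IAA, against 321 to 374 in EBd4 Dox. In mES the gamma sum was 326 to 361 in IAA and 289 to 323 in Dox, higher in every IAA library. The alpha sum, over 14 genes, was at most 26.7 in any library. No test was made on these sums.

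**Figure D4:**
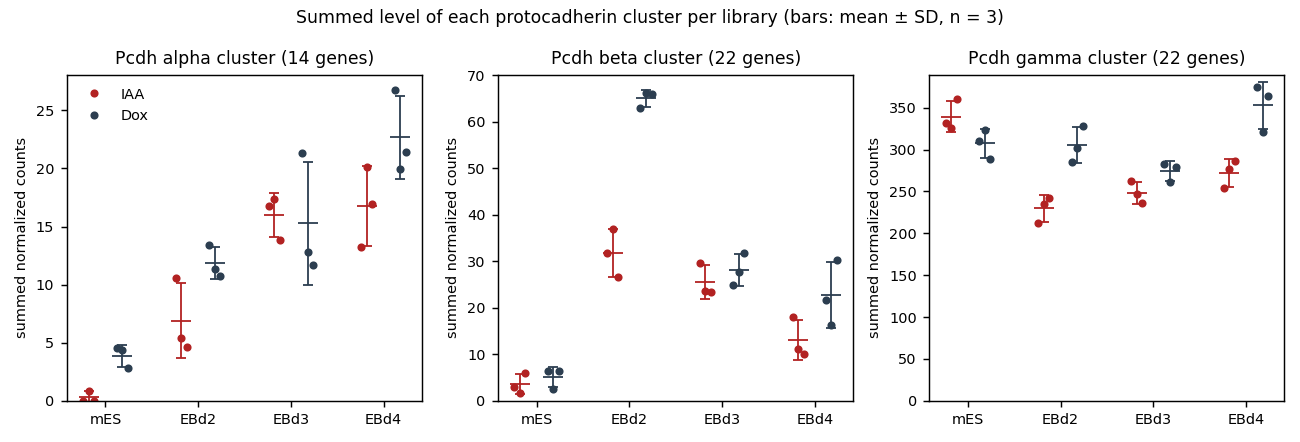
Summed normalized counts of the 14 alpha, 22 beta and 22 gamma protocadherin genes in every library, IAA in red to the left of Dox in dark blue at each stage, with mean ± SD (n = 3). The EBd2 Dox libraries of the beta cluster sit between 62.9 and 66.2 and the EBd2 IAA libraries between 26.5 and 37.0. The gamma sums of IAA libraries are below those of Dox libraries in EBd2 and EBd4 and above them in mES.

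Of 30 clustered members tested in EBd2, 6 fell and none rose by limma (16.7% of all genes lower, 13.4% higher), and 22 had a negative fold change (median -0.30, against -0.04 over all genes). By edgeR 6 passed and by DESeq2 3. The share that fell was near that of all genes and was not tested against it. Pcdhb17, the beta member with the highest level per kb, had 13.2, 13.5 and 7.29 in EBd2 IAA, against 22.6, 27.4 and 30.1 in EBd2 Dox (-1.20 ± 0.27, adjusted p = 0.0021). Pcdhga2 had 24.7, 18.9 and 19.2 in EBd2 IAA, against 45.3, 46.3 and 35.2 in EBd2 Dox (-0.98 ± 0.21, adjusted p = 0.0010), a call held in every alternative setting run. Pcdhga1 had 42.4, 59.5 and 47.7 in EBd2 IAA, against 64.6, 76.6 and 80.4 in EBd2 Dox (-0.56 ± 0.16, adjusted p = 0.0088). No IAA library of these 3 genes reached a Dox library. The other members that fell were Pcdhga3 (-0.95 ± 0.27, adjusted p = 0.012), Pcdhgb1 (-1.22 ± 0.43, 0.036) and Pcdhb7 (-1.86 ± 0.50, 0.0077). Their calls were lost in 2, 5 and 1 alternative settings, DESeq2 among them for Pcdhga3 and Pcdhgb1. The call of Pcdhga1 was lost in 2 settings and that of Pcdhb17 in 1. The EBd2 marker sums given above moved beside these falls, and their part was not tested. The 4 gamma genes among them, Pcdhga1, Pcdhga2, Pcdhga3 and Pcdhgb1, are numbers 1 to 4 of the 22 gamma genes in genome order, and no gene from number 5 on passed. That order was looked at after the calls were known, and it was not tested.

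Of the 21 gamma members, 4 rose and 7 fell in EBd2 Dox against mES Dox (35.0% of all genes higher, 29.1% lower). The counts were 3 and 4 in EBd3 (31.5% and 28.6%), and 7 and 3 in EBd4 (30.6% and 30.2%). Pcdhga12 fell to 23.7 in EBd2 Dox and to 16.8 in EBd4 Dox, against 49.8 in mES Dox, while Pcdhga2 rose to 42.3 in EBd2 Dox, against 12.9 in mES Dox. Pcdhgc3, a C-type isoform that is expressed broadly rather than picked at random, averaged 63.4 in EBd4 Dox and 35.7 in mES Dox (0.80 ± 0.25, adjusted p = 0.0077). Before that, Pcdhgc3 was lower than in mES Dox. Over 14 alternative settings its log2 fold change was -1.13 to -0.60 in EBd2 Dox and -0.95 to -0.75 in EBd3 Dox. In mES it had 49.8, 48.4 and 45.2 in IAA, against 37.1, 37.4 and 32.5 in Dox (0.41 ± 0.17, adjusted p = 0.045), which 10 of 15 alternative settings lost. Pcdhga11 fell in mES (9.77, 6.17 and 16.6 in IAA, against 17.2, 17.4 and 19.5 in Dox), a call that 9 alternative settings lost. In EBd3 (28 tested) and EBd4 (27 tested) no clustered member passed limma, at medians of -0.12 and -0.46. At an unadjusted p below 0.05 the counts were 2 in EBd3 and 4 in EBd4, and edgeR and DESeq2 called 0 at both stages.

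Outside the clusters, long genes made up 7 of the 8 members that fell in EBd3 and 5 of the 8 that fell in EBd4, out of 22 of 37 and 23 of 38 tested. Of members with a genomic span of at least 100 kb, 21 of 22 had a negative fold change in EBd3 (median -0.75), with 7 fallen and 0 risen. Of all genes of that span tested, 1806 of 2244 were negative (median -0.26), and 28.3% fell and 1.43% rose. The share of long members that fell (31.8%) was thus near that of all long genes, and it was not tested against it. Of members under 100 kb, 4 of 15 were negative in EBd3 (median 0.11), with 1 fallen and 1 risen. Of all genes under 100 kb, 3.74% fell and 4.56% rose in EBd3. In EBd4, 21 of 23 long members were negative (median -0.85), against 9 of 15 short ones (median -0.09). Those that fell there were 5 of 23 long members (21.7%) and 3 of 15 short ones, and 1 short member rose. Over all genes 16.4% of long and 4.33% of short ones fell in EBd4, and long genes were negative in 1487 of 2196 cases (median -0.14). In mES the long and short members had like medians (-0.19 and -0.22). There 2 of 15 long members fell and 0 rose, and 4 of 10 short ones fell and 2 rose. Over all genes in mES 31.5% of long and 19.0% of short ones fell, and 16.3% and 17.5% rose. In EBd2 the medians of long and short members were -0.38 and 0.20. There 6 of 23 long members fell and 3 rose, and 2 of 15 short ones fell and 5 rose. Over all genes in EBd2 25.8% of long and 15.6% of short ones fell, and 13.0% and 13.4% rose. Span and expression level were not separated here.

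**Figure D5:**
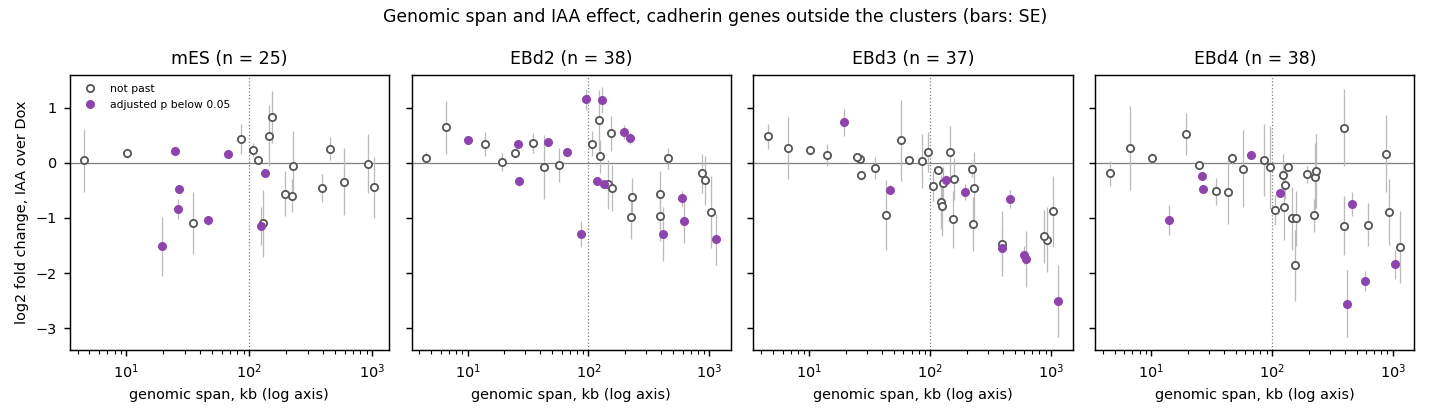
Log2 fold change of IAA over Dox (bars, SE) against genomic span on a log axis for the tested members outside the clusters, 25 in mES, 38 in EBd2, 37 in EBd3 and 38 in EBd4, filled where the limma adjusted p was below 0.05. The dotted line marks 100 kb. In EBd3 and EBd4 nearly all points right of the line are below 0.

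Genes around the cadherins were taken from lists written with earlier results of these data known, and their counts were not tested against the shares of all genes that passed (37.5% in mES, 30.1% in EBd2, 10.5% in EBd3 and 10.3% in EBd4). Of the adherens junction partners, 5 of 15 rose and 6 fell in mES, 7 of 16 rose and 2 fell in EBd2, 2 rose and 4 fell in EBd3, and 2 rose and 3 fell in EBd4, at medians of 0.00, 0.03, -0.01 and 0.05. Ctnnb1, beta-catenin, which ties classical cadherins to actin through alpha-catenin, averaged 8176 in EBd2 IAA and 6822 in EBd2 Dox (0.26 ± 0.04, adjusted p = 3.5e-05) and also rose in mES and EBd3. Nectin1, an adhesion receptor recruited to the same junctions, averaged 544 in EBd2 IAA and 284 in EBd2 Dox (0.95 ± 0.10, adjusted p = 3.1e-07). Ctnnd2, the neural delta-catenin, fell at all 4 stages, and averaged 21.0 in EBd4 IAA and 70.1 in EBd4 Dox (-1.74 ± 0.24, adjusted p = 5.4e-04). Desmosome genes, whose cadherins are not members here, fell in 4 of 5 cases in mES and 4 of 7 in EBd2, where none rose, while 1 of 6 fell in each of EBd3 and EBd4 and 1 (Dsg2) rose in EBd3. Pkp2, a plaque protein of desmosomes, averaged 67.1 in mES IAA and 248 in mES Dox (-1.88 ± 0.09, adjusted p = 8.8e-19).

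Of 7 transcription factors that repress Cdh1 or drive loss of epithelial character, 1 rose and 3 fell in mES, 2 fell in EBd2, 1 in EBd3 and 3 in EBd4 (medians 0.18, -0.07, -0.12 and -0.21). Snai1, a direct repressor of Cdh1, averaged 39.8 in EBd2 IAA and 78.0 in EBd2 Dox (-0.94 ± 0.16, adjusted p = 1.1e-04). Zeb2 averaged 102 in EBd4 IAA and 182 in EBd4 Dox (-0.89 ± 0.20, adjusted p = 0.012). Zeb1 went the other way in mES, with 199 in IAA and 122 in Dox (0.70 ± 0.09, adjusted p = 1.5e-08). Of the 8 genes for cadherin cleavage and junction signalling, 2 rose and 2 fell in mES, 4 rose in EBd2, 1 rose in EBd3 and none passed in EBd4 (medians 0.05, 0.19, 0.08 and -0.01). Adam17, a protease that sheds surface proteins, averaged 689 in EBd2 IAA and 480.1 in EBd2 Dox (0.52 ± 0.06, adjusted p = 1.9e-06).

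Of the 12 planar polarity genes that work with the Celsr receptors, 3 rose and 2 fell in mES, 4 rose and 2 fell in EBd2, 2 rose and 1 fell in EBd3, and 2 rose and 4 fell in EBd4 (medians 0.06, 0.10, 0.13 and -0.14). The 5 of 12 that passed in mES stand beside 37.5% of all genes, and the 6 of 12 in EBd4 beside 10.3%. Dvl2, which relays Frizzled signals, rose at all 4 stages (0.22 to 0.52). Prickle1 averaged 336 in EBd4 IAA and 620.2 in EBd4 Dox (-0.95 ± 0.19, adjusted p = 0.0057). Among 17 genes of Fat-Dachsous and Hippo signalling, 5 rose and 4 fell in mES, 3 rose and 3 fell in EBd2, 1 rose and 3 fell in EBd3, and 1 rose and 2 fell in EBd4, at medians between -0.01 and 0.02. Fjx1, the kinase that tunes Fat and Dachsous binding, averaged 267 in EBd2 IAA and 187 in EBd2 Dox (0.51 ± 0.09, adjusted p = 1.8e-04), and 124 in EBd4 IAA and 199 in EBd4 Dox (-0.68 ± 0.15, adjusted p = 0.0089).

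Of 14 regulators of the protocadherin clusters, 6 rose and 5 fell in mES, 5 rose and 1 fell in EBd2, 2 fell in EBd3 and 1 fell in EBd4, at medians between -0.03 and 0.07. The DNA methyltransferase Dnmt3b, which methylates protocadherin promoters in mouse, averaged 320.3 in mES IAA and 1047 in mES Dox (-1.71 ± 0.05, adjusted p = 4.8e-26). In EBd2 it averaged 28118 in IAA and 21015 in Dox (0.42 ± 0.04, adjusted p = 4.3e-08). Dnmt3b also belongs to the epiblast markers. Dnmt3a, the related methyltransferase, averaged 12421 in EBd2 IAA and 9700.4 in EBd2 Dox (0.36 ± 0.04, adjusted p = 1.4e-06). Their part in the protocadherin values was not tested.

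The effect of IAA differed from that in mES for 12 members in EBd2, where 16.3% of all genes passed the same limma test of the difference over 24 libraries (9.73% more positive in EBd2 than in mES, 6.61% more negative). In EBd3 the count was 7 (11.7% of all genes; 7.15% more positive, 4.52% more negative) and in EBd4 it was 9 (16.8%; 9.68% more positive, 7.08% more negative). Cdh3, Pcdh1 and Cdh15 passed at all 3 EB stages, each with a more positive effect in EBs than in mES, and the Cdh15 difference in EBd2 was lost in 15 alternative settings. Fat1 passed in EBd2 and EBd4, and Fat3 and Cdh4 in EBd3 and EBd4, each with a more negative effect in EBs. The 3 comparisons share the mES libraries.

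The authors' deposited table, which sets IAA against Dox at each stage, called 8 different members under its own rule. In the authors' deposited table Cdh3 was down in mES at a log2 fold change of -1.04. For EBd2 the authors' deposited table called Cdh9 (1.11) and Pcdh17 (1.16) up and Pcdhga2 (-1.01), Pcdhga3 (-1.003) and Fat2 (-1.34) down. Fat3 was down in the authors' deposited table in EBd3 (-1.68) and EBd4 (-2.19), and Cdh13 in EBd4 (-1.93). Each of these calls lay on the same side in the limma test above.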

How the data were processed

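Total RNA of 24 libraries (8 groups of 3) was sequenced. Per the submitters' processing notes, reads were handled with STAR 2.5.3a, featureCounts 1.5.2, DESeq2 and the mm10 build. Strand setting, annotation version and treatment of shared reads are not given in the sources used here. The deposited signal values are counts that the authors divided by a size factor for each library. 100% of positive values came out as whole reads within a tolerance of 1e-06 when scaled back, and the deposited mean equals the mean over all 24 libraries, so the 4 tables share a scale. The authors' deposited log2 fold changes, p-values and score columns (the test statistic) were used only where named.

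The main test was limma 3.58.1 (R 4.3.3; trend) on log2(value + 1), over all genes with a mean of at least 1 in the libraries fitted, with Benjamini-Hochberg adjustment at 0.05 over all genes tested. A fold change on this scale understates the change of low genes. Each IAA comparison was fitted on its own 6 libraries, EB stages on the 12 Dox libraries, and differences between stages on all 24. Alternatives were edgeR 4.0.16 and DESeq2 1.42.0 on recovered reads, TMM, pseudocounts 0.25 and 5, no filter, a mean of at least 10, a replicate block, a joint fit and each library left out. A count of 0 over a group was set at 3 reads. Intervals (95%, exact binomial) cover counting error only. Scripts were tested on simulated data.

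The members and gene lists were chosen with earlier results of these data known. By rule, Cdh1, Cdh2, Cdh3, the member of each class with the highest level per kb and, per class and comparison, up to 4 members each way with the largest fold change were named, where these passed, reached a mean of 20 in the higher group and did not overlap between groups. For differences between stages it was the 4 largest each way, and for each pathway list up to 3 genes with the smallest adjusted p. Other members named were chosen after their values were seen. The replicate numbers did not pair the libraries: deviations of same-numbered IAA and Dox libraries from their group means correlated at -0.18 to 0.094 over 14718 genes.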

Additional observations from a re-analysis of the deposited data

Results flagged for a closer look

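For 28 pairs of a member and an EB stage, the log2 fold change of IAA over Dox differed from that in mES cells by limma over all 24 libraries, with Benjamini-Hochberg adjustment. Values below are the stage's effect minus the mES effect, with SE.

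In EBd2 the effect was more positive than in mES for Cdh9 (2.23 ± 0.53), Cdh22 (1.92 ± 0.63), Cdh15 (1.53 ± 0.52), Dchs1 (1.44 ± 0.42), Cdh3 (1.41 ± 0.14), Pcdh1 (1.17 ± 0.13) and Cdh10 (1.12 ± 0.26). It was more negative for Pcdhgb1 (-2.11 ± 0.63), Fat2 (-1.72 ± 0.58), Pcdhga2 (-1.61 ± 0.35), Pcdhga3 (-1.32 ± 0.46) and Fat1 (-0.37 ± 0.09). In the 3 gamma protocadherins named here the IAA effect was positive in mES and negative in EBd2. Many of these were lost under other settings: Cdh15 and Pcdhga3 in 15 of 20 each, Fat2 in 12 of 20, Cdh22 in 9 of 18, Dchs1 in 5 of 20, Pcdhgb1 in 3 of 18, and Cdh9 and Cdh10 in 2 each. For Cdh9 and Cdh10 these 2 settings were edgeR and DESeq2, which both lost Dchs1 too. Cdh9 had only 4, 1 and 2 reads in mES Dox and 0, 0 and 2 in mES IAA. Without the EBd2 IAA 1 library the count of 12 fell to 6.

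In EBd3 it was more positive for Cdh15 (2.25 ± 0.52), Pcdh1 (0.90 ± 0.13) and Cdh3 (0.55 ± 0.14). It was more negative for Cdh12 (-2.51 ± 0.66), Pcdh11x (-1.74 ± 0.57), Fat3 (-1.34 ± 0.37) and Cdh4 (-0.91 ± 0.27). Cdh12 and Pcdh11x had no read in any mES library, so their difference holds the EBd3 effect alone. The Pcdh11x difference was lost in 14 of 18 settings, that of Fat3 in 4, that of Cdh4 in 3 and that of Cdh12 in 1. Without the mES IAA 3 library the count of 7 fell to 4.

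In EBd4 it was more positive for Cdh15 (2.03 ± 0.52), Cdh3 (1.12 ± 0.14) and Pcdh1 (0.59 ± 0.13). It was more negative for Cdh11 (-2.69 ± 0.82), Pcdh7 (-2.55 ± 0.78), Fat3 (-1.80 ± 0.37), Pcdh19 (-1.08 ± 0.33), Cdh4 (-1.002 ± 0.27) and Fat1 (-0.59 ± 0.09). The EBd4 IAA libraries ranged from 0.948 to 21.4 normalized counts for Cdh11 and from 1.12 to 15.8 for Pcdh7, which had no read in any mES library. The differences of Cdh11 and Pcdh7 were each lost in 5 settings, and those of Fat3 and Pcdh19 in 3 each.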

How the results depend on the processing

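No named result changed sign past the threshold. Of the alternatives run on named members, 2513 gave the same call, 267 lost it and 12 gained it. Of 50 calls of a member with IAA, 21 held in every alternative. DESeq2 called 4 members in mES (against 10) and 3 in EBd3 (against 9), and for differences from mES 5 in EBd2 (against 12) and 4 in EBd3 (against 7), where edgeR called 7 and 4. With a mean of at least 10 required, 29, 29 and 28 members passed in EBd2, EBd3 and EBd4 Dox against mES Dox, since only 33 members were tested. The cause of the other shifts was not tested.

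Leaving out 1 library gave 7 to 8 members with IAA in mES, 18 to 22 in EBd2, 3 to 12 in EBd3 and 4 to 10 in EBd4. It gave 43 to 49, 40 to 45 and 41 to 48 for the EBd2, EBd3 and EBd4 Dox stages, and 6 to 11, 4 to 8 and 6 to 11 for the differences from mES in EBd2, EBd3 and EBd4. The Fat3 differences in EBd3 and EBd4 were lost under edgeR, DESeq2 and a pseudocount of 0.25, and in EBd3 also without mES IAA 3.

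With the replicate number as a block, 10, 22, 10 and 6 members passed with IAA in mES, EBd2, EBd3 and EBd4, then 51, 45 and 44 for the Dox stages and 8, 6 and 9 for the differences. On recovered reads edgeR called 7932, 6680, 2301 and 2192 genes in all with IAA in mES, EBd2, EBd3 and EBd4. The count over all genes moved most in the later stages: leaving out 1 library gave 1202 to 2613 in EBd3 (against 2245) and 776 to 2039 in EBd4 (against 2173), the replicate block gave 1365 in EBd4, and DESeq2 gave 1283 in EBd3. Depth limits low members most: changes in beta protocadherins and type II cadherins with few reads may not be detectable. No read limit for this was worked out. Some low members did pass, such as Pcdhb7 in EBd2, with 3, 1 and 0 reads in IAA and 8, 5 and 9 in Dox.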
